A study of Rattus norvegicus with 18 samples.

Results

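The adrenal gland of the spontaneously hypertensive rat (SHR) was compared between 3 and 6 weeks of age. The comparison rests on the 3 arrays labelled SHR 6w and the 3 arrays labelled SHR 3w, which are 6 of the 18 arrays of the series. The other 12 arrays hold 3 each of the normotensive control strain WKY and of the stroke-prone strain SHRSP at the same ages. Each array measured total RNA of adrenal glands that had been kept in a stabilising solution, hybridised in a single colour to an Agilent rat gene expression array. No animal was treated, no strain carries a transgene, and the labels call the replicates biological. Sex, and whether an array holds 1 gland, 1 animal or a pool, are not given in the sources used here.

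The adrenal is an outer cortex that makes steroid hormones from cholesterol and an inner medulla whose chromaffin cells make adrenaline and noradrenaline. The cortex is renewed from progenitors under the capsule, and its outermost layer, the zona glomerulosa, makes aldosterone through Cyp11b2. The zona fasciculata makes corticosterone through Cyp11b1. In the weeks after weaning the rat gland still grows, and SHR are known as a strain in which blood pressure climbs with age from youth. In whole glands, fewer cells of a type and less RNA per cell cannot be told apart.

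A level here is the log2 signal of a gene's probe minus the 75th percentile of its array on the log2 scale, so that 0 is a bright probe and -10 lies at the background. A change is the 6-week minus the 3-week mean on that scale, and a gene is called where limma's p-value, adjusted over all 20826 genes tested, was under 0.05. Defining markers of cortex and medulla were bright on all 6 SHR arrays. Cyp21a1, a steroid hydroxylase of the cortex, lay at 7.80, 7.96 and 7.95 at 3 weeks and at 7.99, 7.87 and 7.87 at 6 weeks. Th, the first enzyme of catecholamine synthesis, lay at 4.19, 4.15 and 4.18 at 3 weeks and at 4.11, 4.02 and 4.50 at 6 weeks.

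In 345 genes the difference between SHRSP and SHR was called at both ages with opposite signs, and these genes were kept apart from all counts below. In 284 of the 345 the mean of the arrays labelled SHR 6w lay nearer to that of SHRSP 3w than to that of SHR 3w. The 345 were chosen on these arrays, so their values are a description. Among the 69 that differed at least 2-fold at both ages, the median absolute difference was 1.52 between SHR 6w and SHR 3w. It was 0.34 between SHR 6w and SHRSP 3w, and 0.40 between SHRSP 6w and SHR 3w. SHR 6w lay nearer to SHRSP 3w than to SHR 3w in 64 of the 69.

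The probes of 4 genes with wide swings are shown by their first 30 of 60 bases, since they carry the pattern plainly; positions are those of the whole probe in the array files (rn4).
Vegfb, chr1:209657830-209657889, minus strand: aagccttcagtttgatcttcaccaaatgga
Serpinc1, chr13:76562664-76562723, plus strand: gcaccttttcctatctcggtgtttgttaat
Agtrap, chr5:165154364-165154423, minus strand: agaagacaagaagcccaagatgttttctcg
Ephx2, chr15:45535737-45538220, minus strand: ggctttcgtgttctagctatagacatgaaa

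Vegfb encodes a growth factor of the vascular endothelial family. Its level was -9.46, -10.01 and -9.35 on the SHR 3w arrays and 0.73, 0.67 and 0.64 on the SHR 6w arrays, while it was 0.43, 0.60 and 0.52 in SHRSP 3w and -9.97, -9.67 and -9.18 in SHRSP 6w. The probe was not well above background on any SHR 3w array, which makes SHR 6w at least 396-fold brighter. All 6 WKY arrays lay between 0.20 and 0.69, so that the groups labelled SHR 3w and SHRSP 6w were the dark ones.

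Agtrap, an adaptor that binds the angiotensin receptor, went the other way: 0.11, -0.10 and -0.28 in SHR 3w, -4.41, -4.74 and -5.15 in SHR 6w, -4.83, -4.81 and -5.21 in SHRSP 3w, and 0.62, 0.63 and 0.50 in SHRSP 6w. Serpinc1, antithrombin, lay at 1.93, 2.88 and 1.55 in SHR 3w and at -5.28, -5.69 and -5.61 in SHR 6w. Ephx2, the soluble epoxide hydrolase, lay at -3.41, -2.98 and -2.97 in SHR 3w and at -8.38, -8.34 and -9.0 in SHR 6w, where no array was well above background, so that SHR 3w was at least 20.3-fold brighter. Further kept-apart genes were Uts2 (urotensin 2; -4.79), Haghl, which was well above background on 3 arrays of SHR 3w and 1 of SHR 6w, and Ryr1l, which was so on 3 and on none, at least 2.76-fold brighter in SHR 3w. A dimmer probe of Ryr1l was not well above background on any SHR array. In SHRSP these 7 genes changed by between -10.12 and 10.45, each with the sign opposite to SHR.

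**Figure D1:**
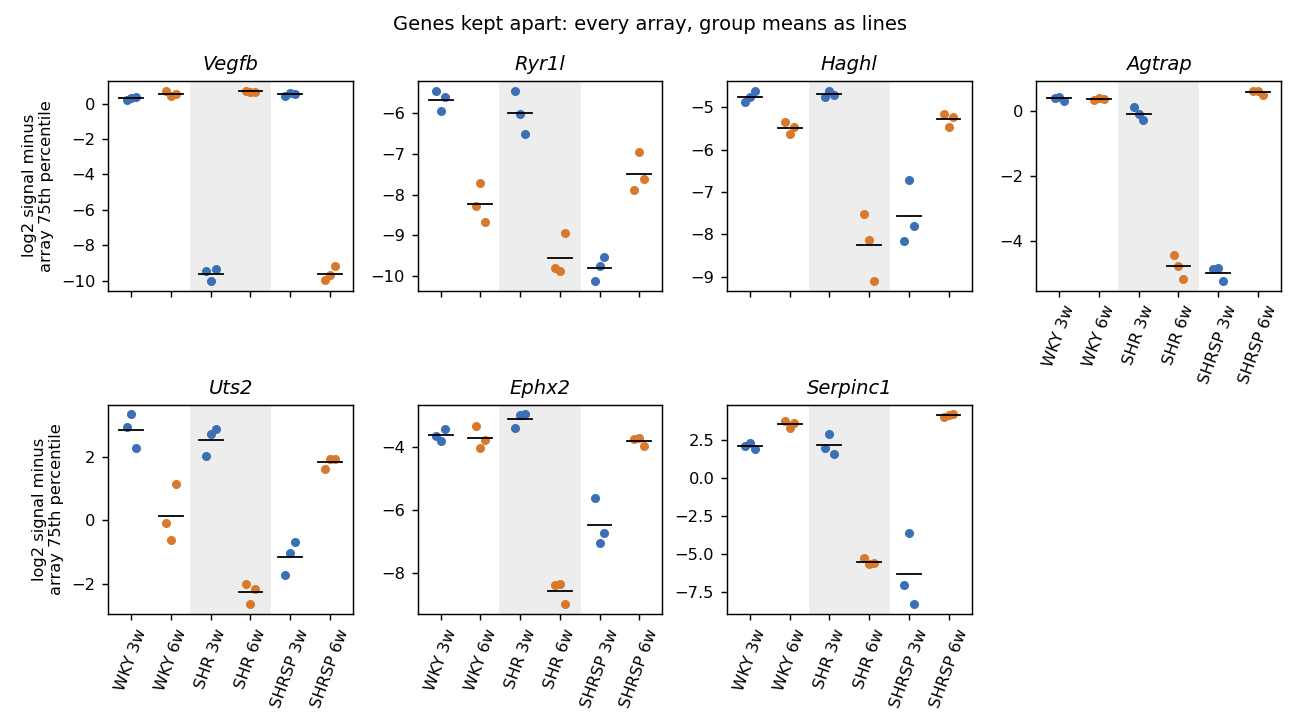
Level of 7 kept-apart genes with large SHR differences on every array (y axis, log2 signal minus the array's 75th percentile), with 3 arrays in each of the 6 groups on the x axis and group means as lines. Within the shaded SHR groups the levels jump between ages, and the SHR 6w points sit near those of SHRSP 3w.

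Of the 345, 281 were called between the SHR ages, 170 higher and 111 lower at 6 weeks, and 214 were called with opposite signs in SHR and SHRSP. A further 388 genes kept the sign of the SHRSP minus SHR difference at both ages, 31 of them at least 2-fold at both. In those 31 the median absolute difference between SHR 6w and SHR 3w was 0.45, and that between SHR 6w and SHRSP 3w was 1.15. The 31 were chosen on these arrays too. Their choice by sign favours such medians, as that of the 69 favours the opposite, so the contrast is a description. At 4-fold or more at both ages there were 22 genes with changed sign and 3 with the same sign. At 8-fold there were 7 and 0. The last gene inside the rule was Rsph9 (larger adjusted p 0.0496) and the first outside it Hspa14 (0.051). Of 337 kept-apart genes with a position, 51.6% lay within 1 Mb of another of them, against 38.5% of the 371 placed genes with the same sign. No such share was computed for sets drawn from all tested genes. Chromosome 1, with 2431 tested genes the fullest, held 51 of the 345, or 2.10% of its tested genes, beside 345 of all 20826. Chromosome 18 had 20, or 3.99%, chromosome 15 had 20, or 3.41%, and chromosome 20 had 3, or 0.55%. Whether the strain labels of SHR and SHRSP lie the same way at the 2 ages was not tested. Beside the labelled comparison 2 further ones are therefore given: SHR and SHRSP arrays pooled at each age, which is the same whichever way the labels lie, and SHR 6w against SHRSP 3w.

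A second departure concerns 1 array. On SHR 3w replicate 2 the liver markers lay 4.66 (median of 20 genes, log2) above the mean of the 6 SHR arrays, while the other 5 arrays lay between -1.56 and 0.13. Their summed signal, in units of each array's 75th percentile, was 169.8 there and 10.7 to 33.6 on the other SHR arrays. Several results are given with and without it, and named differences from WKY that lost their call without it are listed in the closing section.

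With these genes kept apart, 20481 genes were left. At 6 weeks 2979 of them (14.5%) were higher and 2836 (13.8%) lower in SHR, and 1152 of these calls were at least 2-fold. The arrays of the 2 ages did not overlap in 8610 genes (42%). Without SHR 3w replicate 2, 4206 genes were called. Counting the kept-apart genes in gave 6096. In WKY 1027 genes (5.01%) rose and 1450 (7.08%) fell with age, and in SHRSP 2075 (10.1%) rose and 3656 (17.9%) fell. These age comparisons share no arrays. Of the SHR rises, 640 were called as rises in WKY, which is 21.5% of the SHR list and 62.3% of the WKY list, and 990 in SHRSP (33.2% and 47.7%). Of the SHR falls, 776 fell in WKY (27.4% and 53.5%) and 1526 in SHRSP (53.8% and 41.7%). In all 3 strains 430 genes rose and 539 fell. Pooling SHR with SHRSP gave 3144 rises (15.4%) and 4121 falls (20.1%), which took in 2096 of the SHR rises and 2409 of the SHR falls. Against SHRSP 3w, SHR 6w kept 1397 of the rises and 1863 of the falls. Both of these comparisons share arrays with that of SHR.

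The 6 SHR arrays lay on 4 slides over 3 scan days, per the file headers. Slide 2 alone held both ages, with SHR 3w replicate 2 and SHR 6w replicate 1, and 99.8% of the 5815 called genes moved the same way between those arrays as in the whole comparison, which includes them. With slide as a block 4297 of the 5815 stayed called in the same direction.

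The genes named from here on did not overlap between the ages of SHR and were also called in the same direction in the pooled comparison, unless said otherwise.

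The largest fall was that of Akr1c18, the enzyme that inactivates progesterone by reduction at carbon 20 (Akr1c3 in RefSeq's current naming). Its level was 0.97, 1.47 and 2.49 at 3 weeks and -9.66, -9.65 and -8.59 at 6 weeks. No SHR array at 6 weeks was well above background on this probe, and the level at 3 weeks was at least 549-fold brighter (change -10.94 ± 0.42 SE, adjusted p 1.03e-09). A second probe of the gene went from a mean of 0.59 to one of -7.74 and was well above background on 1 SHR 6w array. Akr1c18 fell in WKY (-9.72) and SHRSP (-10.6) as well. Its first probe stayed well above background on 2 WKY 6w arrays and on no SHRSP 6w array.

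The first 30 bases of the probes behind the 4 steepest falls that did not rest on the liver-marked array, with whole-probe positions in rn4, are given to identify the transcripts.
Akr1c18, chr17:77284120-77284179, plus strand: cagatgacatggaaattttagataacctgg
Sult1e1, chr14:21965266-21965325, plus strand: agctctgagacacttccttgtgtctgaaat
Akr1c14, chr17:77317088-77317147, minus strand: cagggaattaattgttcgaggttattgatt
Cdh1, chr19:36511853-36511912, plus strand: ttgctgtactcacataattttggaagcaaa

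Sult1e1 (ste2 in the array's annotation), the sulfotransferase that inactivates oestrogens, lay at -3.25, -3.46 and -3.02 at 3 weeks and at -10.01, -9.99 and -9.09 at 6 weeks. It was at least 18.6-fold brighter at 3 weeks (adjusted p 7.55e-06). Akr1c14, the 3-alpha-hydroxysteroid dehydrogenase encoded near Akr1c18 on chromosome 17, went from -0.86, -0.25 and 0.00 to -6.96, -5.74 and -6.01, a 58.5-fold fall (adjusted p 3.93e-08). Akr1c18, Sult1e1 and Akr1c14 thus all encode enzymes that modify steroid hormones.

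Cdh1, E-cadherin, which joins epithelial cells, fell 58.6-fold, from 1.28, 1.20 and 1.46 to -5.20, -4.0 and -4.48 (adjusted p 3.1e-06). It fell in WKY (-4.17) and SHRSP (-7.17) too. Sfrp4, a secreted inhibitor of Wnt signalling, went from -0.88, -0.48 and 0.27 to -6.37, -5.60 and -4.64, which is 36.1-fold (adjusted p 1.05e-06). It fell by 2.08 in WKY and by 5.45 in SHRSP. Lgi2, a secreted leucine-rich repeat protein, was well above background on every 3-week array and on no 6-week array, at least 3.78-fold brighter at 3 weeks (adjusted p 4.71e-07).

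Another 4 of the 15 largest falls were far lower on SHR 6w replicate 1 than on the other 6-week arrays. Aspg, an asparaginase, lay at -2.39, -1.02 and -0.89 at 3 weeks and at -8.55, -6.24 and -6.15 at 6 weeks. Fabp3, a fatty acid binding protein of heart and brown fat, went from -1.33, -0.38 and -0.30 to -6.90, -4.96 and -5.01. Ucp1, the uncoupling protein that defines brown fat, went from 4.59, 5.47 and 5.87 to -0.82, 2.58 and 2.20 (adjusted p 0.00178). Dleu7 went from -2.15, -1.72 and -1.40 to -9.32, -3.65 and -3.96 (adjusted p 0.0191). In WKY the changes of these 4 were 0.15, 0.50, 0.57 and 0.22, and none was called. None of the 4 was called in SHRSP either. Without SHR 3w replicate 2 the adjusted p of Dleu7 was 0.0511.

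The remaining 5 of the 15 falls were highest on SHR 3w replicate 2. Gc, the vitamin D binding protein of plasma, lay at -7.36, 1.79 and -3.96 at 3 weeks and at -9.69, -9.01 and -8.98 at 6 weeks. No 6-week array was well above background, and 3 weeks was at least 19.5-fold brighter with replicate 2 counted in. The adjusted p was 0.0162 with that array and 0.0582 without it. Itih4 changed by -4.06 with it and by -1.95 without it (adjusted p 0.0304 and 0.0858). Itih4 was well above background on 2 of 3 arrays at 6 weeks. Ahsg (fetuin A) fell by 4.03 with replicate 2 and by 2.0 without it (adjusted p 0.0175 without it). Gsta2 and Slc38a4 were well above background on no 6-week array, and 3 weeks was at least 21.2-fold and 3.58-fold brighter with replicate 2 counted in. Both stayed called without it (adjusted p 0.00139 and 0.0477), and no bound was computed there. Gc, Ahsg and Gsta2 are abundant liver transcripts.

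**Figure D2:**
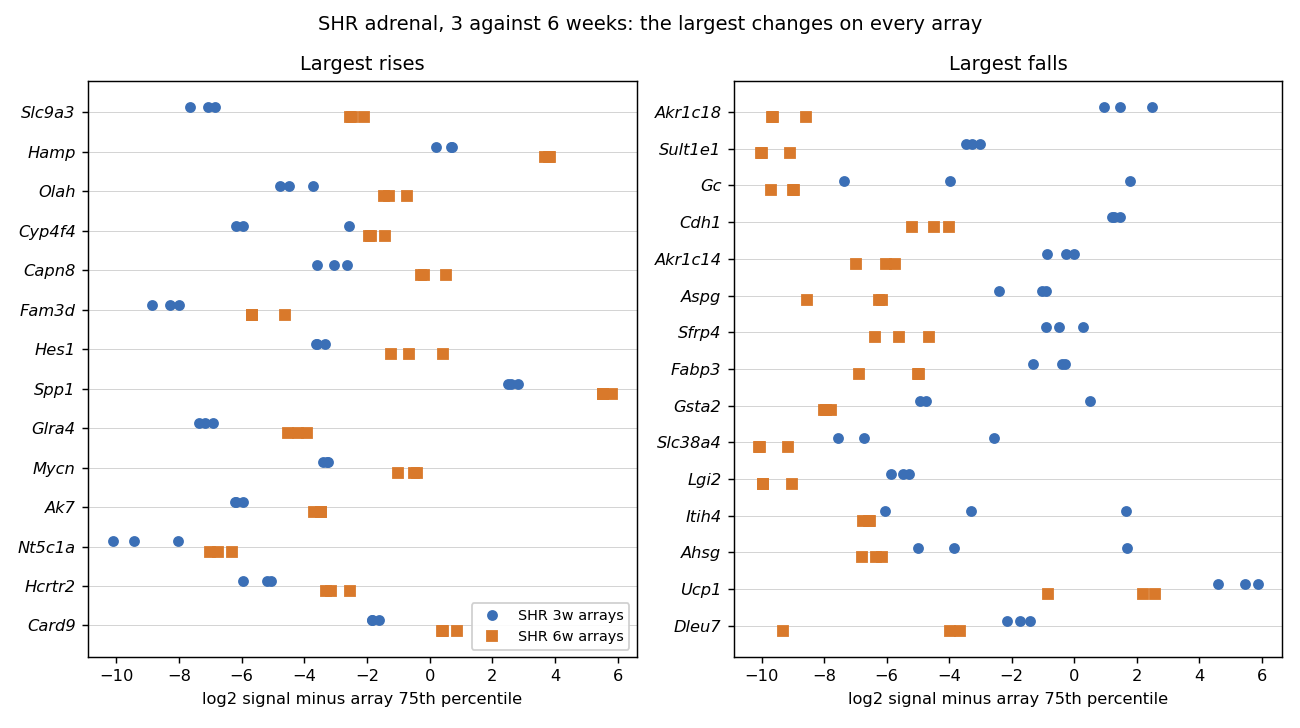
Levels of 14 of the largest rises (left) and the 15 largest falls (right) on the 3 SHR 3w arrays (circles) and the 3 SHR 6w arrays (squares); the x axis is log2 signal minus the array's 75th percentile. The ages do not overlap for any gene shown, and 1 circle stands far right of the others in Gc, Gsta2, Slc38a4, Itih4, Ahsg and Cyp4f4.

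Among the rises, Hamp, the iron hormone hepcidin, went from 0.67, 0.71 and 0.20 at 3 weeks to 3.68, 3.81 and 3.82 at 6 weeks, a 9.47-fold rise (adjusted p 2.82e-07). Spp1, the matrix protein osteopontin, rose 7.93-fold, from 2.83, 2.58 and 2.51 to 5.81, 5.54 and 5.53 (adjusted p 3.93e-08). Both rose in WKY (2.85 and 1.08) and SHRSP (1.85 and 3.39).

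Olah, a thioesterase that ends fatty acid synthesis, rose 9.09-fold, from -3.74, -4.48 and -4.79 to -0.72, -1.29 and -1.45. Capn8, a calpain protease, rose 8.71-fold, and Card9, an adaptor of innate immune signalling, 5.02-fold. Mycn, a growth-promoting transcription factor, went from -3.39, -3.26 and -3.24 to -0.51, -1.01 and -0.41, which is 6.31-fold (adjusted p 1.3e-07). Ak7, an adenylate kinase of ciliated cells, held the smallest adjusted p of these rises (1.44e-09) with levels of -5.95, -6.20 and -6.21 at 3 weeks and -3.47, -3.69 and -3.48 at 6 weeks.

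Hes1, a repressor downstream of Notch, rose 8.14-fold, from -3.33, -3.59 and -3.62 to -1.23, -0.67 and 0.43, while SHRSP showed -0.93 (adjusted p 0.0569). Glra4 rose 7.62-fold and Hcrtr2, an orexin receptor, 5.27-fold. Fam3d was at least 6.19-fold brighter at 6 weeks, and Nt5c1a, a nucleotidase, at least 2.39-fold, with 2 of 3 arrays well above background at 6 weeks.

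Slc9a3, a sodium-hydrogen exchanger of epithelia, showed the widest rise, from -6.87, -7.67 and -7.07 to -2.47, -2.53 and -2.10, but a second probe of the gene changed by 0.85. Cyp4f4, a fatty acid hydroxylase of the liver, rose from -5.96, -2.56 and -6.19 to -1.44, -1.95 and -1.86. The highest 3-week value was that of replicate 2, and without it the rise was 4.33 in place of 3.16.

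Genes were then followed by role, in 20 lists of pathways. Their counts are read against the share of all genes called in SHR, 14.5% higher and 13.8% lower, and a median change of 0.08. Counts in WKY stand beside shares of 5.01% higher and 7.08% lower. For the difference between SHR and WKY the shares of all genes were 2.96% more positive and 2.07% more negative in SHR.

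Of 27 genes of steroid hormone synthesis 7 rose and 8 fell, with a median change of -0.01 that turned sign in 5 of 20 alternatives. Cyp11a1, Cyp21a1 and Cyp11b1 were not called. Cyp11a1, which cleaves the cholesterol side chain, showed -0.01 ± 0.10 (SE), Cyp21a1 0.01 ± 0.08 and Cyp11b1 -0.01 ± 0.08. A dimmer Cyp11b1 probe went from a mean of 1.21 to -1.48. Star, which carries cholesterol into the mitochondrion, rose from 5.58, 5.56 and 5.61 to 6.38, 6.32 and 6.45 (1.74-fold, adjusted p 1.51e-05), and its second probe changed by 0.25. Hsd3b6, a steroid dehydrogenase (Hsd3b2 in RefSeq), rose by 1.24. Within this list, which does not hold Akr1c14, the deepest fall after Akr1c18 and Sult1e1 was that of Nr0b1 (DAX1), a nuclear receptor that represses steroid synthesis genes: 2.54, 2.40 and 2.36 against -0.66, -0.01 and -0.45, which is 7.0-fold (adjusted p 6.16e-07). Mc2r, the ACTH receptor, showed 0.32 ± 0.14 (adjusted p 0.0919).

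In the zona glomerulosa list 2 of 18 genes rose and 5 fell, with a median of -0.16. Cyp11b2, aldosterone synthase, lay at 4.25, 4.40 and 4.47 at 3 weeks and at 3.86, 3.84 and 3.96 at 6 weeks, a 1.40-fold fall (adjusted p 0.0106). The channels of the aldosterone-making cell Kcnj5 (-0.62) and Cacna1d (-0.54) fell, and the calcium pump Atp2b3 rose (0.47). Of 21 progenitor, Wnt and hedgehog genes 3 rose and 5 fell, with a median of -0.24 (WKY: 0 and 8). The fallers included Gli1 (-1.04), which marks hedgehog-receiving cells of the capsule, its partner Smo (-0.79) and Fst, an activin inhibitor (-1.43).

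Cholesterol synthesis and uptake was among the lists with most rises: 15 of 34 rose and 1 fell, with a median of 0.36. Idi1, an isomerase of the isoprenoid path, went from 1.04, 1.63 and 1.46 to 2.79, 2.91 and 2.95 (2.84-fold, adjusted p 5.58e-05). Tm7sf2, a sterol reductase, rose 2.78-fold, Ebp by 0.87 and Srebf2, the factor that switches these genes on, by 0.70. WKY had 19 rises and no fall in this list. In SHRSP 11 rose and 5 fell. Idi1 itself showed -0.41 in SHRSP (adjusted p 0.122).

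Of 36 chromaffin and catecholamine genes of the medulla 1 rose and 6 fell (median -0.12), beside 14.5% higher and 13.8% lower over all genes. When pooled with SHRSP 1 rose and 2 fell. With only the 6 SHR arrays in the fit 1 rose and none fell. Th showed 0.04 ± 0.13, Dbh, which makes noradrenaline, 0.05 ± 0.17, Pnmt, which makes adrenaline, 0.19 ± 0.12, and the granule protein Chga 0.51 ± 0.19 (adjusted p 0.0553). Ddc, the decarboxylase between Th and Dbh, fell by 0.33 (adjusted p 0.0102; not called when pooled with SHRSP). Cpe, a prohormone-processing enzyme, fell by 0.32, Stx1a of the release machinery by 0.78, and the neuropeptide gene Cartpt rose by 0.44. Stx1a was highest at -0.49 on SHR 3w replicate 3, where the Schwann cell and neuron markers summed to 15.8 against 5.21 to 7.09 on the other SHR arrays.

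Cell cycle and DNA replication genes fell: 42 of 65 were lower and 3 higher at 6 weeks, with a median of -0.76. The median lay between -1.21 and -0.49 in all 20 alternatives and was -0.86 within slide 2. Without SHR 3w replicate 2, 33 fell and 1 rose. In WKY 1 rose and none fell (median -0.04), and in SHRSP 1 rose and 47 fell (median -0.85). The difference between SHR and WKY was called for 3 genes of the list, all more negative in SHR, beside 2.07% of all genes. Those of Gins2 and Mcm7 were not called without SHR 3w replicate 2 (adjusted p by limma 0.106 and 0.0884). Mybl2, a transcription factor of dividing cells, went from -2.11, -2.24 and -1.88 to -3.27, -3.34 and -3.34 (2.36-fold, adjusted p 0.000142). Mcm3, a subunit of the replicative helicase, lay at 0.56, 0.54 and 0.70 and then at -0.46, -0.17 and -0.44, and Mcm7 of the same ring fell by 0.65. Gins2, which works with that helicase, fell by 1.06. In each of these 4 every 3-week array lay above every 6-week array, as the rule for naming them required. The risers included Tk1 (0.53), which supplies nucleotides, and the cyclin Ccnd1 (0.31).

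Genes that act in mitosis often carry a pair of promoter elements, the CHR (TTTGAA) and the CCAAT box. Promoters were at hand for 49 of the 65 (RefSeq, GRCr8), and the 250 bases before the start were searched on both strands. CCAAT was present in 35 of 49 (71.4%) against 34.3% of all 27457 promoters, and TTTGAA in 14 of 49 (28.6%) against 16.0%. Among the 31 with a promoter that fell, TTTGAA was present in 8 and CCAAT in 20, so neither was more frequent in them than in the whole list. TTTGAA also lay before list members that were not called, Hmmr, Cdc20 and Cdkn3 among them. The windows of 5 that fell, chosen after their values were seen, show the TTTGAA match or its reverse complement in capitals, 5' to 3' on the gene's strand.
Prc1, chr1:143659451-143659480, plus strand: cctccggctcggTTTGAAttccgcggggtc
Top2a, chr10:84473098-84473127, minus strand: gctagatgaatgTTCAAAtgaaactaggga
Anln, chr8:29197520-29197549, minus strand: tgaaattcaaatTTTGAAcggccgtggtag
Kif23, chr8:71320646-71320675, minus strand: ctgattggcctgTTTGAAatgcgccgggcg
Cenpa, chr6:31431651-31431680, minus strand: gagcgtctgattTTTGAActactggcggcg
Prc1 and Kif23, which build the spindle midzone, fell by 1.07 and 1.0. Top2a, which untangles DNA, fell by 0.94, Anln of the contractile ring by 0.70 and the centromeric histone Cenpa by 0.97. The capitals begin 18 bases before the start in Prc1 and 116 bases before it in Cenpa. The Anln window also holds the reverse complement in lower case, ahead of the capitals. A match is a run of letters and not a measured site.

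Imprinted and growth genes fell in 15 of 24 and rose in 3, with a median of -0.42. H19, the imprinted noncoding RNA that is abundant in fetal tissue, went from 1.07, 1.86 and 2.17 to -2.61, -1.72 and -1.38 (12.2-fold, adjusted p 5.8e-06). Its neighbour Igf2, the fetal growth factor, went from -1.51, -1.01 and -0.62 to -2.72, -2.78 and -2.09 (2.80-fold, adjusted p 0.000262). Igf2bp2 fell by 1.43 on its brighter probe, and its dimmer probe changed by 0.54. Sgce fell by 0.91 and Dlk1, a mark of immature cells, by 0.42. Igf1, the growth factor of later life, rose 4.29-fold, from 2.71, 3.03 and 3.11 to 5.56, 4.41 and 5.18 (adjusted p 3.11e-05). WKY had 12 falls and 2 rises in this list (median -0.44).

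Collagen and matrix genes fell in 36 of 54 and rose in 6, with a median of -0.82 (WKY: 25 and 1, median -0.52). Col1a1, the main fibrillar collagen, went from 3.66, 3.74 and 4.32 to 2.01, 2.25 and 2.71 (3.0-fold), and Col3a1 from 3.45, 3.73 and 4.16 to 2.05, 2.03 and 2.53 (2.98-fold). Fbn2, a fibrillin of young tissue, fell by 2.09, Col5a2 by 1.25 and Loxl2, a collagen crosslinker, by 0.88. The risers included the basement membrane genes Nid1 (1.04) and Lamb1 (0.99). Markers of fibroblasts, capsule and smooth muscle fell in 11 of 23 and rose in none (median -0.38). Pdgfrb, a receptor of pericytes and fibroblasts, fell by 0.85 and Cspg4 by 0.68. The summed signal of this marker list was 14.5 to 17.3 at 3 weeks and 11.5 to 14.1 at 6 weeks. Endothelial markers fell in 7 of 22 and rose in none, among them Cldn5 (-1.23) and Tie1 (-0.76), with sums of 29.8 to 30.5 and 27.6 to 29.9. The part of these cells in the fall of the matrix genes was not tested.

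**Figure D3:**
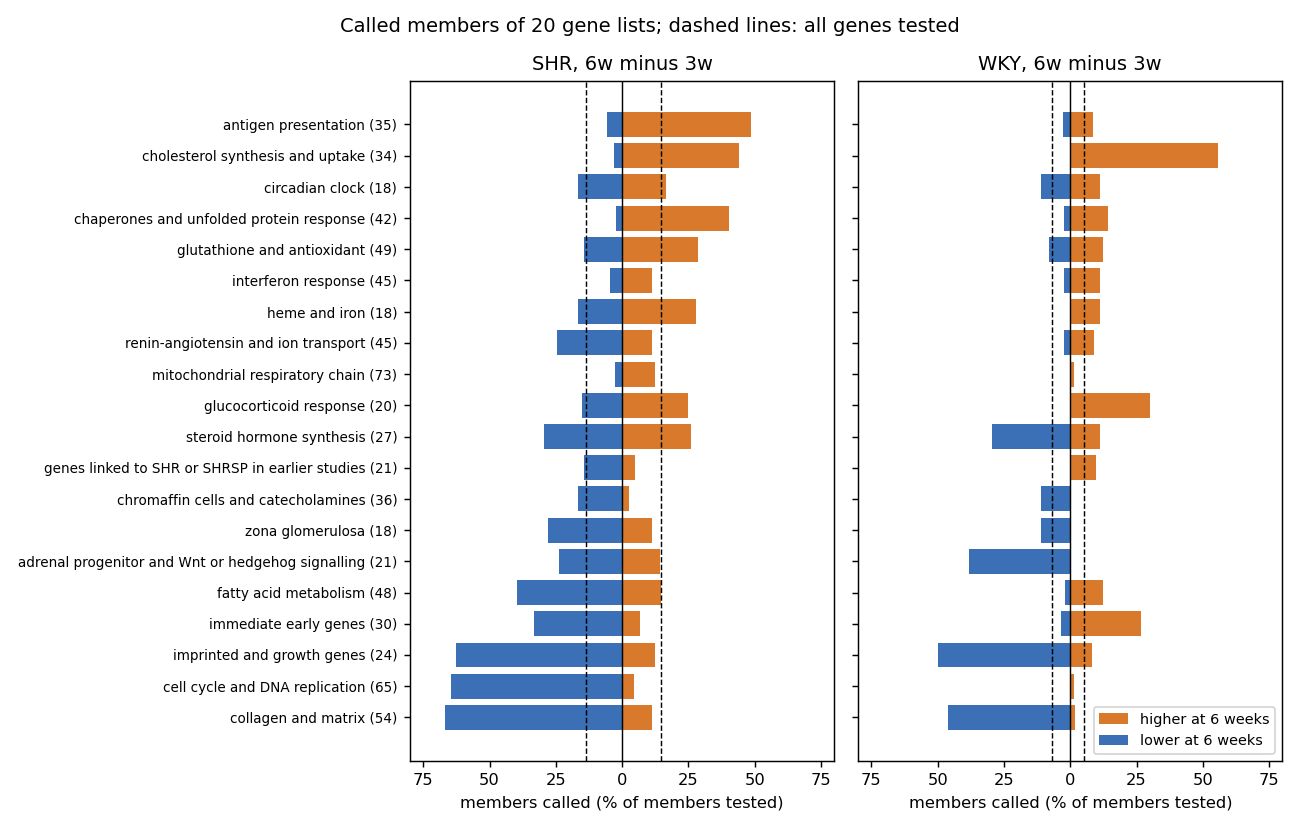
Share of members called higher (right of 0) and lower (left of 0) at 6 weeks in 20 gene lists, for SHR (left panel) and WKY (right panel), with the number tested in brackets and dashed lines at the share of all genes called. Collagen, cell cycle and imprinted genes extend farthest to the lower side in SHR, and no cell cycle gene was called lower in WKY.

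Immediate early genes, which respond within minutes to stimuli, fell in 10 of 30 and rose in 2 (median -0.39), where WKY had 8 rises and 1 fall (median 0.37). The difference between SHR and WKY was called for 1 gene more positive and 7 more negative in SHR. Atf3, a stress-response factor, went from -2.31, -1.77 and -1.67 to -3.56, -3.57 and -3.06 in SHR (adjusted p 0.000251) and changed by 0.93 in WKY. Dusp6, a brake on ERK signalling, fell by 1.22, and Egr4 was well above background on every 3-week array and on none at 6 weeks. Gadd45b, a stress gene, rose 4.42-fold. Against SHRSP 3w the list's median turned to 0.17, with 4 rises and 2 falls, and Atf3 showed 0.31. With SHR 6w as the end point, the direction of this list thus differed between SHR 3w and SHRSP 3w as the start. Within SHRSP 1 rose and 7 fell with age (median -0.40). When SHR and SHRSP were pooled 2 rose and 13 fell (median -0.49).

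Of 18 circadian clock genes 3 rose and 3 fell. Arntl (Bmal1) went from -0.42, -0.40 and -0.01 to -1.67, -1.46 and -1.56 (adjusted p 6.89e-05), its partner Npas2 from -0.62, -0.79 and -0.57 to -1.71, -1.71 and -1.73 (adjusted p 7.85e-05), and Rora, which activates Arntl, fell by 1.01. Cry2, a repressor of the clock, rose by 0.48. Against SHRSP 3w Npas2 was higher by 1.13, and its dimmer probe changed by 0.18 between the SHR ages. The hour of tissue collection is not given in the sources used here.

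Chaperones and the unfolded protein response rose in 17 of 42 and fell in 1 (median 0.28). In WKY 6 rose and 1 fell, and in SHRSP 6 rose and 9 fell. The difference between SHR and WKY was called for 2 genes of the list, both more positive in SHR, beside 2.96% of all genes. Hspb1, a small heat shock protein, went from 2.56, 2.62 and 2.64 to 4.27, 4.02 and 3.92 (2.75-fold, adjusted p 7.12e-06). Bag3, which works with it, rose by 0.86 and Dnajc3 by 0.68. The faller was Asns, an amino acid synthesis gene of the stress response (-1.63). When pooled with SHRSP 10 rose and 4 fell, with a median of 0.07. Glucocorticoid-responsive genes rose in 5 of 20 and fell in 3 (median 0.00). The metallothioneins Mt2A (4.0-fold; 1.39, 1.64 and 1.21 against 3.69, 3.02 and 3.54) and Mt1a (1.87), the sulfotransferase Sult1a1 (1.18) and lipocalin Lcn2 (0.86) were the largest of the risers.

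Antigen presentation genes rose in 17 of 35 and fell in 2 (median 0.37). In WKY 3 rose and 1 fell, and in SHRSP 10 rose and 2 fell. The difference between SHR and WKY was called for 1 gene more positive and 1 more negative in SHR. Over all genes these shares were 2.96% and 2.07%. Ciita, the master regulator of class II genes, went from -6.31, -6.34 and -6.06 to -4.87, -4.42 and -4.64 (3.02-fold, adjusted p 5.51e-05). The class II gene RT1-Db1 went from -0.91, -1.27 and -0.94 to 0.25, 0.41 and 0.73 (2.84-fold), and B2m, the light chain of class I, rose by 0.72. RT1-M3-1 fell by 0.71. Genes of the RT1 complex are closely related, and their probes can share targets. In SHRSP Ciita changed by -0.61 and RT1-Db1 by 0.10. Interferon genes rose in 5 of 45 and fell in 2 (median 0.10). When pooled with SHRSP 16 rose and 5 fell (median 0.34), SHRSP itself had 23 rises and 3 falls, and SHR 6w against SHRSP 3w had 21 and 3 (median 0.55). In SHR Ifi27l2b (1.5), Bst2 (1.02) and Ifi44 (0.81) were among the risers.

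Macrophage and monocyte markers rose in 6 of 21 and fell in 2 (median 0.13), and when pooled with SHRSP in 5 and 2 (median -0.04). Fcgr3a, an antibody receptor, rose by 1.67, the endotoxin receptor Cd14 by 1.36, lysozyme Lyz2 by 1.02 and Aif1 by 0.62. Their summed signal went from 29.3 to 31.7 at 3 weeks to 46.4 to 51.4 at 6 weeks, with no overlap. Lyz2 alone made up 12.6 to 14.3 of this sum at 3 weeks and 26.1 to 29.1 at 6 weeks, and the rest was 16.8 to 18.02 and 20.3 to 22.3. WKY held sums of 26.7 to 29.5 and 27.8 to 36.4. Lymphocyte and NK markers rose in 5 of 16 and fell in 1, with the cytotoxic genes Prf1 (0.90) and Gzma (0.71) among them, and their sums were 0.56 to 0.61 and 0.65 to 0.85. Of 24 such markers on the array, 7 did not pass the filter on dim probes, the T cell genes Cd3e and Cd8a included. The part of these cells in the rise of the antigen presentation genes was not tested. Mast cell and granulocyte markers fell in 6 of 16, with the mast cell genes Tpsab1 (-1.61), Hdc (-1.03) and Kit (-0.47). Their sums overlapped between the ages, at 1.03 to 1.74 and 0.49 to 1.11. With only the 6 SHR arrays in the fit 1 of the 16 fell.

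White fat markers fell in 13 of 20 and rose in none in SHR (median -1.17) and fell in 13 in SHRSP, while WKY had 1 rise and no fall (median 0.04). With only the 6 SHR arrays in the fit 5 of the 20 fell. The difference between SHR and WKY was called for 3 of the 20, all more negative in SHR. Thrsp, a lipogenic factor, fell by 2.30, the glycerol enzyme Gpd1 from 4.50, 4.94 and 5.19 to 3.67, 3.74 and 3.77, Tshr by 1.22 and Cd36, the fatty acid transporter, from 4.24, 4.55 and 4.69 to 3.10, 3.76 and 3.66 (1.98-fold, adjusted p 0.000309). The summed signal was 182.7, 235.8 and 267.3 on the 3-week arrays and 117.0, 134.8 and 164.0 on the 6-week arrays, against 142.9 to 183.4 and 158.4 to 178.3 in WKY. Brown fat markers fell in 5 of 12 and rose in 2. Beside Ucp1 and Fabp3, Dio2, which activates thyroid hormone, and Ppargc1a, which drives mitochondrial growth, were called lower, and each was well above background on 1 of 3 arrays at 6 weeks. Pank1, which starts coenzyme A synthesis, rose by 0.87. Fatty acid metabolism as a list fell in 19 of 48 and rose in 7 (median -0.32), where WKY had 1 fall and 6 rises. With only the 6 SHR arrays in the fit 10 fell and 5 rose. The difference between SHR and WKY was called for 5 of the 48, all more negative in SHR. Acsl5 (-1.13) was among the fallers and Ucp2 (1.53) and Acsl4 (0.72) among the risers. The part of fat around the gland in these falls was not tested.

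**Figure D4:**
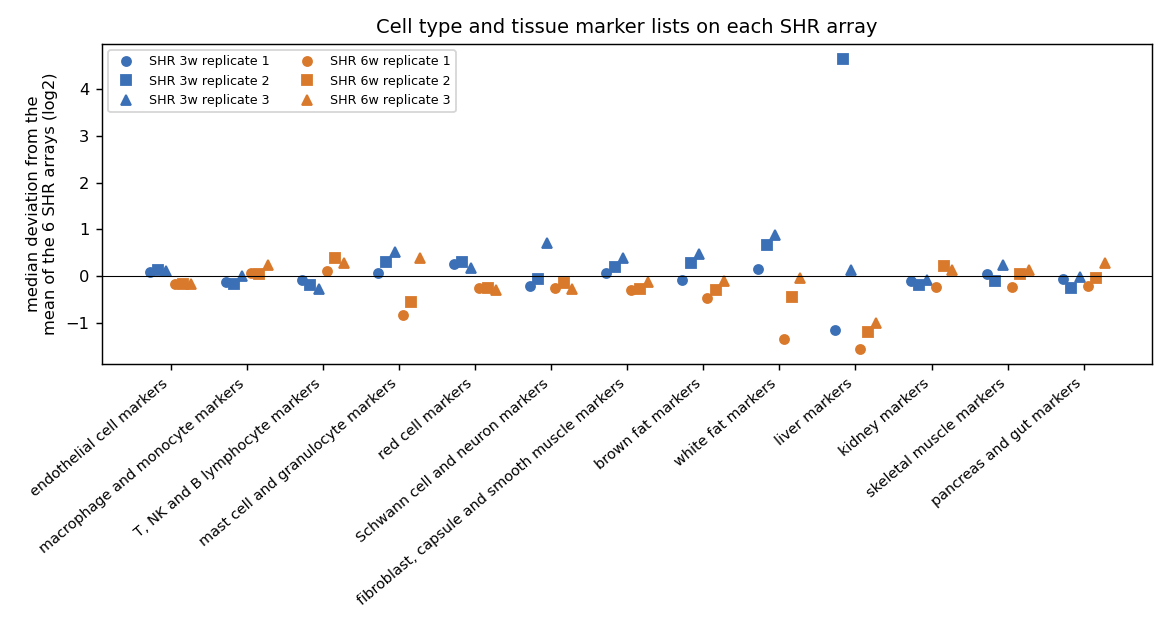
Median deviation of 13 cell type and tissue marker lists on each SHR array from the mean of the 6 SHR arrays (y axis, log2), with 3-week arrays left and 6-week arrays right within each list. SHR 3w replicate 2 stands at 4.66 for liver, and the white fat values run from -1.35 on SHR 6w replicate 1 to 0.89 on SHR 3w replicate 3.

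Liver markers fell in 8 of 20 and rose in 1. With only the 6 SHR arrays in the fit none fell and 1 rose. Without SHR 3w replicate 2 the count was 4 and 1, and the median went from -2.43 to -0.66. Vtn (vitronectin) fell by 2.94 with that array and by 1.90 without it, and Rbp4, which fat also makes, by 1.79 and 1.58. Hpx, which binds haem in plasma, rose by 2.15, from 0.28, 0.68 and -0.07 to 2.17, 2.56 and 2.61. Of 30 liver markers on the array, 9 did not pass the filter, Apob and Cps1 included. Schwann cell and neuron markers fell in 7 of 22 and rose in 2. The myelin genes Mbp (-1.72) and Pmp22 (-1.01) were highest on SHR 3w replicate 3. Skeletal muscle markers fell in 5 of 16 and rose in 2, with Mybpc2 and Atp2a1 (each well above background on 2 of 3 arrays at 6 weeks), and Myl1 at least 2.81-fold brighter at 3 weeks. Kidney markers rose in 4 of 19 and fell in 4, and pancreas and gut markers rose in 2 of 11 and fell in 1. Of the sex chromosome genes Sry alone was on the array, and it was not called.

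Red cell markers fell in 6 of 10. Hba-a2, an alpha globin gene, fell by 0.55, Eraf, which stabilises that chain (Ahsp in RefSeq), by 0.96, the band 3 gene Slc4a1 by 0.95 and Alas2, which starts haem synthesis, by 0.99. Their summed signal was 232.7 to 261.4 at 3 weeks and 164.2 to 172.3 at 6 weeks. In the haem and iron list 5 of 18 rose and 3 fell. Beside the rise of Hamp, the transferrin receptor Tfrc fell by 1.1, the iron exporter Slc40a1 by 1.01 and the importer Slc11a2 by 0.59.

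Of 45 renin-angiotensin and ion transport genes 5 rose and 11 fell, with a median of 0.06 that turned sign in 7 of 20 alternatives. Npr3, the clearance receptor of natriuretic peptides, fell by 1.48 and Npr2 by 0.69. Slc12a3, a sodium chloride cotransporter, rose by 0.82 and the sodium pump subunit Atp1b1 by 0.39. Of 21 genes that earlier work had linked to SHR or SHRSP 1 rose and 3 fell beside the 3 kept apart (Vegfb, Agtrap and Ephx2). The risers and fallers were Rasal1 (0.52), Cd36, Fah (-0.87) and Stim1 (-0.52), and Gstm1 showed -0.11 ± 0.12. Glutathione and antioxidant genes rose in 14 of 49 and fell in 7 (median 0.17), with Sod3, the extracellular superoxide dismutase (1.16), Mgst2 (1.05) and Gstk1 (0.67) higher and Gpx7 (-0.92) lower. Of 73 respiratory chain genes 9 were higher and 2 lower, with a median of 0.00 that turned sign in 8 of 20 alternatives. With quantile normalization 1 was higher and 15 lower, and with only the 6 SHR arrays in the fit 1 and 0. Uqcrfs1, a subunit of complex III, fell by 0.31 and lost the call without SHR 3w replicate 2 (adjusted p 0.0849).

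The last question was where the age change of SHR differed from that of the control strain. The test of the difference itself called 1030 genes, 607 (2.96%) more positive and 423 (2.07%) more negative in SHR. With quantile normalization the split was 245 and 392, and with median scaling 290 and 310. The count fell to 399 without SHR 3w replicate 2, to 635 without SHR 3w replicate 3, to 591 without SHR 6w replicate 1 and to 670 without SHR 6w replicate 3. Foxo6, a forkhead factor, went from -5.73, -6.38 and -6.04 to -3.61, -3.66 and -4.11 in SHR, a change of 2.26, against 0.03 in WKY (difference 2.23 ± 0.25 SE, adjusted p 0.000278). Adra1d, an adrenaline receptor, changed by 2.11 in SHR and by -0.11 in WKY. Rnd3, a small GTP-binding protein, changed by 1.91 and -0.46, and Sftpd, a lung collectin, by 1.95 and -0.10. Gfra1, a receptor for GDNF, was not called in SHR (0.62, adjusted p 0.119) and fell by 2.45 in WKY.

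On the negative side the 6 genes were Aspg, Fabp3, Dio2, Sult1e1, Ucp1 and Egr4. The probes of Fabp3 (-5.45) and Ucp1 (-4.56) were well above background on every SHR and WKY array. Aspg was so on 2 of 3 SHR 6w arrays and Dio2 on 1, Sult1e1 on no SHR 6w array and 1 WKY 6w array, and Egr4 on no SHR 6w and no WKY array, so the sizes of these 4 differences have no order. The differences of Ucp1 and Egr4 were not called without SHR 3w replicate 2 (adjusted p 0.0703 and 0.0788), nor was that of Nt5c1a (0.101). Of these, Fabp3, Ucp1 and Dio2 are on the brown fat list. Among the genes always reported, Cyp11b2 fell by 1.49 in WKY and by 0.49 in SHR (difference 1.0 ± 0.18, adjusted p 0.00637), and Cyp11b1 fell by 0.65 in WKY and showed -0.01 in SHR (difference 0.64 ± 0.12, adjusted p 0.00797). Pnmt fell by 0.64 in WKY and showed 0.19 in SHR (adjusted p 0.0135 for the difference). Cd36 rose by 0.52 in WKY and fell by 0.98 in SHR (adjusted p 0.00143 for the difference).

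**Figure D5:**
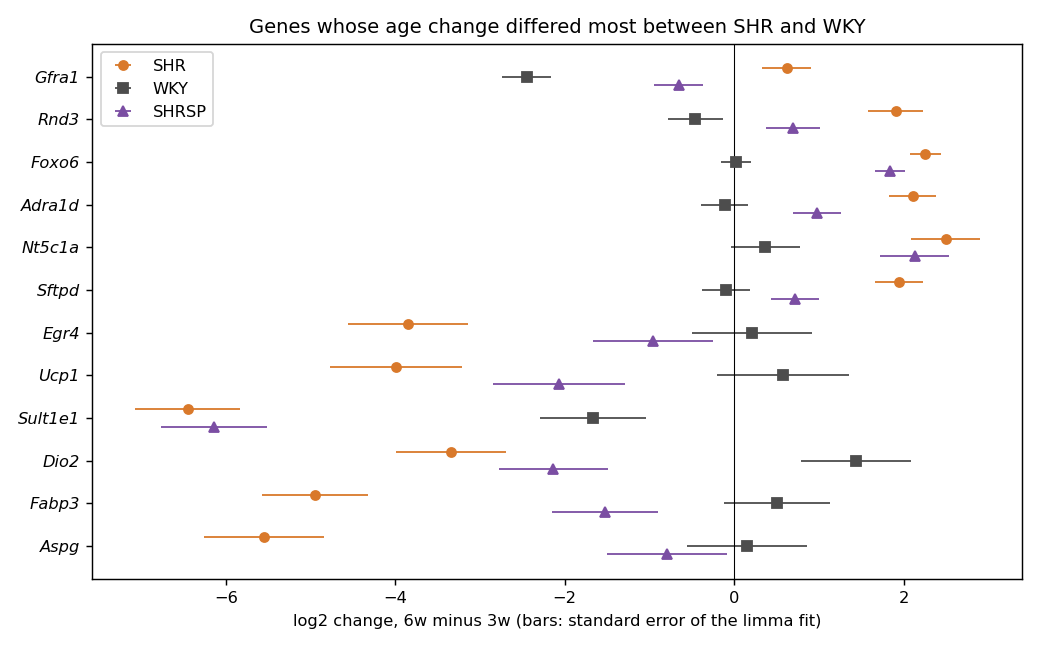
Age change (x axis, log2, 6w minus 3w) with its standard error in SHR, WKY and SHRSP (3 arrays at each age) for the 6 genes most positive and the 6 most negative in SHR relative to WKY. SHR circles lie away from the WKY squares, and the SHRSP triangles lie on the SHR side of WKY for all 12 genes. The 12 were chosen by the SHR minus WKY difference, and the same WKY values are the reference for SHRSP, which favours that placing.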

How the data were processed

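Rat adrenal RNA was read on 18 single-colour Agilent arrays (44254 spots). The deposited scanner files give intensity values made with Agilent Feature Extraction 10.5.1.1, per the submitters' processing notes, with no scaling between arrays, per the file headers; the deposited series table held the same intensity values. Here log2 gProcessedSignal minus each array's 75th percentile was used, without control spots and outlier flags. A gene was its brightest probe over all arrays, kept if well above background on all 3 arrays of any group; 177 of the 20826 genes lacked at least 1 value. limma 3.58.1 (R 4.3.3) fitted 6 group means (12 residual degrees of freedom, Benjamini-Hochberg). Gene names came from the files, updated by accession from RefSeq (17673 of 30367 probes). Bounds compare a group with the dimmest probe well above background on each array. The number of arrays limits the precision: 3 a group.

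Genes named were the 15 largest rises and falls, up to 4 called members of each list, the 6 most positive and negative differences from WKY, the 8 largest kept-apart genes and a set always reported; Mki67 was not tested under that name. Other list members named with their values, the cell cycle risers, the mitotic genes with printed promoters, Nid1, Lamb1 and Sry, were chosen after their values were seen. The rule also takes in genes not reported here. Members and lists were chosen with earlier results of these data known. Alternatives were other scalings, background corrections, filters and probe rules, slide and replicate blocks, fewer arrays and each SHR array left out. Same-numbered SHR arrays of the 2 ages had deviations correlated at -0.126, -0.0862 and 0.107, so the numbers were not taken as pairs. Fits were checked on simulated data.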

Additional observations from a re-analysis of the deposited data

Results flagged for a closer look

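The age change of SHR differed from that of WKY, by limma's test of the difference itself, in 1030 genes. The genes named in the report that were among them follow, each with the SHR change minus the WKY change on the log2 scale; a negative value means a deeper fall or smaller rise in SHR. Causes were not tested.

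Among the largest falls of SHR the difference was -4.78 for Sult1e1 (ste2), -3.09 for Sfrp4, -5.70 for Aspg, -5.45 for Fabp3 and -4.56 for Ucp1. Among its largest rises it was 1.91 for Spp1, 1.73 for Mycn, 1.19 for Ak7 and 2.13 for Nt5c1a. Of the steroid genes Cyp11b1 differed by 0.64, Cyp11b2 by 1.0, Hsd3b6 by 1.19 and Nr0b1 by -1.81. Of the chromaffin genes Pnmt and Cpe both differed by 0.83. In the cell cycle list the differences were -1.02 for Mybl2, -0.79 for Gins2 and -0.43 for Mcm7.

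Of the immediate early genes Gadd45b differed by 1.18, Atf3 by -2.41, Dusp6 by -1.24 and Egr4 by -4.07, and of the clock genes Arntl by -1.05 and Npas2 by -1.91. RT1-Db1 differed by 1.03 and Lyz2 by 0.96. For genes of fat the differences were -1.50 for Cd36, -1.17 for Gpd1, -4.78 for Dio2, -3.39 for Ppargc1a and -0.89 for Acsl5. The iron transporters Slc40a1 and Slc11a2 differed by -0.86 and -0.72. Npr3 differed by -1.63, Mgst2 by 0.81, and the muscle genes Mybpc2 and Myl1 by -3.81 and -3.10. Further positive differences were 3.07 for Gfra1, 2.36 for Rnd3, 2.23 for Foxo6, 2.22 for Adra1d and 2.04 for Sftpd.

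Without SHR 3w replicate 2, 13 of these 42 genes were no longer called: Ucp1 (adjusted p 0.0703), Nt5c1a (0.101), Gins2 (0.106), Mcm7 (0.0884), Gadd45b (0.0566), Egr4 (0.0788), RT1-Db1 (0.103), Lyz2 (0.055), Gpd1 (0.0751), Npr3 (0.0533), Mgst2 (0.102), Mybpc2 (0.0927) and Myl1 (0.083). Sult1e1, Aspg, Dio2, Egr4, Nt5c1a, Ppargc1a, Mybpc2 and Myl1 each had a probe near background on some SHR or WKY array, so the sizes of their differences are not exact.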

How the results depend on the processing

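Over the named genes and alternatives 3033 values were computed, of which 2945 kept direction and call, 71 lost the call, 9 gained it and 8 turned sign. The turned values were, in SHR 6w against SHRSP 3w, 0.31 for Atf3, 1.13 for Npas2, -0.0093 for Cry2, 0.25 for Ryr1l, 0.82 for Serpinc1 and 0.19 for Agtrap, and, with SHR and SHRSP pooled, 1.40 for Serpinc1 and 0.43 for Agtrap. The count of genes called in SHR was 3292 with only the 6 SHR arrays in the fit and 4206 to 6599 with 1 replicate left out. The count that differed from WKY was 637 with quantile normalization, 600 with median scaling, 630 with no filter on dim probes, 2359 with slide as a block, 639 with only the 12 SHR and WKY arrays, and 399 to 900 with 1 replicate left out. The count of genes kept apart was 227 to 353 with 1 replicate left out and 69 when a 2-fold difference was asked for at both ages. The replicate numbers share only a number: with the replicate block 4591 genes were called in SHR and 266 differed from WKY. The lists without SHR 3w replicate 2 and the alternatives of the pooled comparison were chosen after seeing the data. With 3 arrays a group small changes could not be resolved, and where a probe was not well above background on some arrays of a group its printed difference is not exact. The cause of these shifts was not tested.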
